A study of Mus musculus with 4 samples.

Results

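Chemokines and chemokine receptors were followed by RNA sequencing in the brains of normotensive and hypertensive mice after stroke. The members were every gene whose symbol is a numbered Ccl, Cxcl, Ccr or Cxcr, together with Cx3cl1, Xcl1, Xcr1, Ccrl2 and Ackr1 to Ackr4. This gave 62 genes, 40 ligands and 22 receptors, of the 33981 genes in the joined tables. Ccl21c and Ccl27a each had 2 gene identifiers, which were kept apart.

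Every mouse was a male C57BL/6J aged 3 to 5 months. NT (normotensive) mice received vehicle and HT (hypertensive) mice were infused with angiotensin II, at a daily dose of 0.28 mg/kg. On day 7, mice had sham surgery or a photothrombotic stroke, in which light activates an injected dye and clots vessels, aimed at the prefrontal cortex. Brains were perfused and taken on day 28, and poly(A) RNA came from a coronal section that held the prefrontal cortex, so that infarct, peri-infarct tissue and intact tissue were read together. The groups, written as NT or HT with + Sham or + Stroke, had 6 libraries each with numbered columns, and each library was treated as 1 mouse. If libraries shared an animal, the tests would measure technical spread. In bulk RNA, more cells of a type and more RNA per cell cannot be told apart.

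Libraries held 15922919 to 24865998 counts. Some libraries stood apart. HT + Stroke mice 1 and 6 resembled sham mice in most members that rose in NT mice, HT + Stroke mouse 3 was the highest of its group in 12 of those 17, and HT + Sham mouse 6 was high among sham mice. The section also varied between mice and between groups, and its part in the results was not tested. Summed over 4 cortex markers, CPM (counts scaled to library size) ran from 172.1 to 346.4. Summed over 5 striatum markers they ran from 148.5 to 1727, and over 6 olfactory bulb markers from 59.0 to 708.6. The median olfactory bulb sum was 160.4 CPM in NT + Sham and 354.3 CPM in NT + Stroke, and 5 of 6 markers rose in the test used below. In HT + Sham and HT + Stroke it was 353.4 and 149.8 CPM, where 0 markers rose or fell in that test. Nasal gland markers reached 455 CPM in HT + Stroke mouse 3 and stayed at or below 21.1 CPM elsewhere.

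Chemokines are small secreted proteins that guide leukocytes by binding receptors coupled to G proteins. Inflammatory ligands of the CC class draw monocytes, macrophages and T cells, CXC ligands with an ELR motif draw neutrophils through Cxcr2, and the interferon-induced CXC ligands draw activated T cells through Cxcr3. Homeostatic ligands position cells in healthy tissue, as neuronal Cx3cl1 does for microglia and Cxcl12 does for cells that carry Cxcr4. Atypical receptors bind or scavenge chemokines without G protein signalling. In the injured brain, microglia, astrocytes, endothelium and invading leukocytes are known sources of inflammatory ligands.

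Promoters were examined as sequences because inflammatory chemokines are textbook targets of NF-kappa B, interferon and AP-1 signalling. RefSeq promoter windows of 300 bases (GRCm38.p6, 250 bases before and 50 after a start) were matched for 44 of the 60 member symbols. The kappa B pattern GGGNNNTTCC was in 5.56% of all 32851 windows and in at least 1 window of 9 of the 44 symbols. The interferon-stimulated pattern TTTCNNTTTC was in 3.44% of windows and in 3 symbols, and the AP-1 pattern TGANTCA was in 7.81% and in 8 symbols. Some symbols have more than 1 window, both strands were searched, and a match is a description of letters and not of a working site. The windows below are those of Cxcl10, Ccl12, Cxcl1 and Ccl9. Cxcl10 and Ccl12 rose after stroke in NT and in HT mice in the test used below, though the HT calls depended on the method. Cxcl1 had the largest fold change, and Ccl9 is from the Ccl cluster on chromosome 11. Capitals mark matches.
Cxcl10, chr5:92348840-92349139, minus strand: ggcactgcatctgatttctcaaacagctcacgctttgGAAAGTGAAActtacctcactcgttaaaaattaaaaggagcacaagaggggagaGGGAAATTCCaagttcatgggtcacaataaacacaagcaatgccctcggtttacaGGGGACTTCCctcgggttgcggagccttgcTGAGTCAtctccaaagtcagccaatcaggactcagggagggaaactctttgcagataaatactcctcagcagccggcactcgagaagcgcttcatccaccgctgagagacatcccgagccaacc
Ccl12, chr11:82101595-82101894, plus strand: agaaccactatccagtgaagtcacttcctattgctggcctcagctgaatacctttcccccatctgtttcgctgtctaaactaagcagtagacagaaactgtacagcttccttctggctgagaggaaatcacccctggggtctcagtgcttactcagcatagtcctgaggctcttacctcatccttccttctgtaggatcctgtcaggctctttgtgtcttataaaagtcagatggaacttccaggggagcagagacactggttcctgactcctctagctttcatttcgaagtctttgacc
Cxcl1, chr5:90890995-90891294, plus strand: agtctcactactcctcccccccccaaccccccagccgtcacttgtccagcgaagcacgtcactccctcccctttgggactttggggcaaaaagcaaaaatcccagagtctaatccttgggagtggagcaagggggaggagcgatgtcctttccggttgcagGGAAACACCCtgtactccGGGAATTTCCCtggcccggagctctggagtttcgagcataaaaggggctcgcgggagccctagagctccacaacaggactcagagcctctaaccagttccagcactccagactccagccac
Ccl9, chr11:83578587-83578886, minus strand: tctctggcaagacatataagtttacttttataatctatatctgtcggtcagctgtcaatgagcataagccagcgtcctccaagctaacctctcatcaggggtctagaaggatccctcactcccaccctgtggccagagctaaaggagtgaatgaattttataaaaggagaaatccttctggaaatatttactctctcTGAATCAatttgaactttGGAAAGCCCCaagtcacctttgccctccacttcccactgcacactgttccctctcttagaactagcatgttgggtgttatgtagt
The Cxcl10 window held 2 kappa B matches, GGGAAATTCC from 159 to 150 bases before the start and GGGGACTTCC from 104 to 95. It also held the interferon-stimulated pattern as GAAAGTGAAA, read on the other strand, from 213 to 204 bases before the start, and the AP-1 pattern as TGAGTCA from 74 to 68. The Cxcl1 window held 3 kappa B matches, of which GGGAATTTCC and GGAATTTCCC overlap each other. The Ccl9 window held 1 kappa B and 1 AP-1 match. Ccl12 held none of the 3 patterns in this window, which says only that these letters are not there.

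The question of the first comparison was what stroke does in mice with normal blood pressure. In NT + Stroke against NT + Sham, 17 members rose and 1 fell. Those that rose included CC ligands of monocytes and macrophages, ELR CXC ligands, Cxcl10, Cxcl16 and Cxcr4. The test (edgeR quasi-likelihood, Benjamini-Hochberg adjusted P under 0.05 over all genes) could be run on 29 members, and 33 had too few counts. Of all 16835 genes tested, 14.4% rose and 11.5% fell, against 17 of 29 and 1 of 29 members. The median log2 fold change was 1.16 over the tested members and -0.01 over all genes. These shares and medians are not support for a general rise, because members low in sham mice entered the test only where they were high after stroke. Of the 17 tested members with 10 counts per library or more (0.528 CPM) in every NT + Sham mouse, 6 rose (35.3%), against 13.8% of the 15309 genes held to the same limit. In 16 of the 29 members every stroke mouse lay above every sham mouse, as in 7.78% of all genes. Neither of these was held to that limit, so they too are not support for a general rise. Of the 12 tested members below the limit in some NT + Sham mouse, 11 rose.

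**Figure D1:**
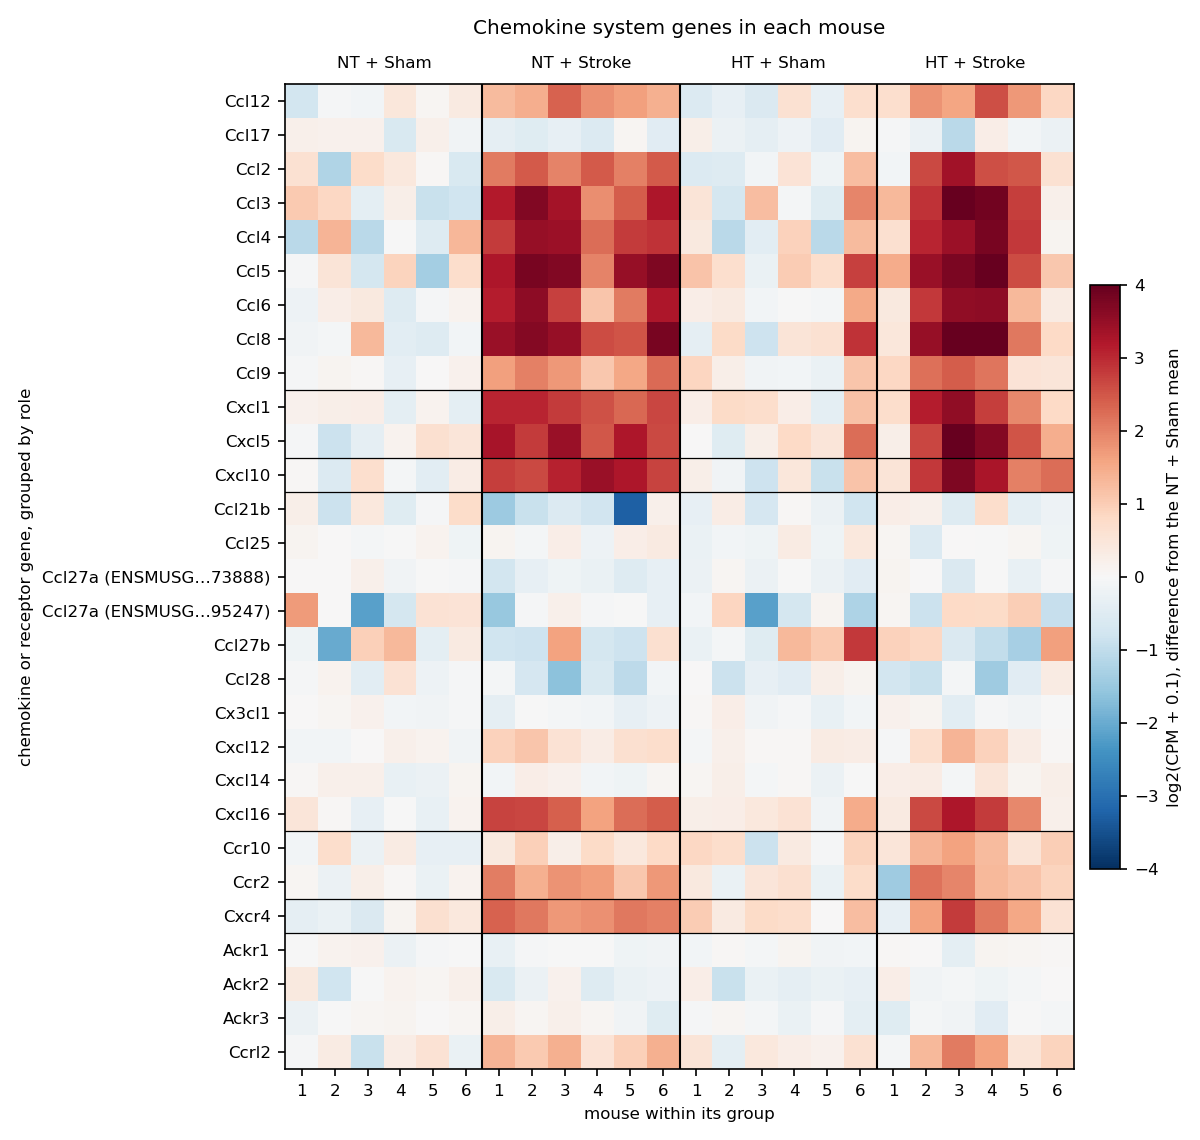
Level of 29 members (rows, grouped by role) in 24 mice (columns), as log2(CPM + 0.1) minus the NT + Sham mean, with red above and blue below. The members that rose are red across all 6 NT + Stroke mice, while HT + Stroke mice 1 and 6 are paler and HT + Sham mouse 6 is red in most of those rows.

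Inflammatory CC ligands made up 8 of the 17 members that rose, out of 15 in this class and 9 tested. Of all genes tested 14.4% rose, which is no like-for-like background for this class. Ccl2, Ccl3, Ccl4, Ccl5, Ccl8 and Ccl12 were below 10 counts per library in some NT + Sham mouse. Ccl2, the main attractant of Ccr2 monocytes, measured 0 to 0.289 CPM in NT + Sham (median 0.177) and 0.821 to 1.18 CPM in NT + Stroke (median 1.02). The NT groups did not overlap, and the log2 fold change was 2.65 ± 0.39 (SE, n = 6 per group, adjusted P = 6.49e-05). Ccl12, another Ccr2 ligand, went from 0.302, 0.576 and 0.804 CPM (lowest, median, highest) to 1.51, 1.87 and 3.34 CPM. Its log2 fold change was 1.82 ± 0.26 (adjusted P = 5.2e-05), again with no overlap. Ccl8, a ligand of Ccr8 in the mouse, went from 0.0934, 0.155 and 0.577 CPM to 1.50, 2.99 and 3.73 CPM. That is a log2 fold change of 3.70 ± 0.38 (adjusted P = 2.05e-06), and the highest sham mouse, number 3, stayed below the lowest stroke mouse.

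Ccl3, Ccl4 and Ccl5, which draw macrophages and T cells, rose by more than Ccl12. Ccl5 went from 0, 0.211 and 0.375 CPM in NT + Sham to 0.921, 3.04 and 3.48 CPM after stroke (log2 fold change 3.75 ± 0.45, adjusted P = 1.02e-05). Ccl3 went from 0.0934, 0.247 and 0.655 CPM to 1.20, 3.26 and 4.66 CPM (3.20 ± 0.42, adjusted P = 2.77e-05). Ccl4 went from 0, 0.077 and 0.435 CPM to 0.881, 1.41 and 2.24 CPM (3.17 ± 0.52, adjusted P = 0.000197). All 3 were near zero in sham mice, with 0 to 13 counts in a library, and had 22 to 85 counts in a stroke library, so that none of the 3 pairs of groups overlapped.

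Ccl6 and Ccl9, macrophage-derived ligands of Ccr1 found in rodents, were the inflammatory CC ligands with the most counts after stroke. Ccl6 measured 1.34, 2.0 and 2.60 CPM in NT + Sham and 4.29, 15.8 and 24.3 CPM after stroke (log2 fold change 2.88 ± 0.40, adjusted P = 0.000241). NT + Stroke mouse 4 was the lowest of the stroke mice and still above every sham mouse. Ccl9 measured 1.23, 1.60 and 1.76 CPM against 3.40, 5.26 and 7.82 CPM (1.82 ± 0.19, adjusted P = 2.11e-06). Ccl17, a ligand of Ccr4, was the tested member of the inflammatory CC class that did not rise, at 1.34 to 2.43 CPM and 1.40 to 2.24 CPM (-0.38 ± 0.19, adjusted P = 0.172). Among the CC ligands with too few counts to test, Ccl7 had 22 counts over 6 NT + Sham libraries and 70 over 6 NT + Stroke libraries, and Ccl22 had 26 and 88.

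The ELR CXC ligands draw neutrophils. Cxcl1 had 4 counts in all NT + Sham libraries together and 97 in NT + Stroke, or 0, 0.0485 and 0.0577 CPM against 0.548, 0.783 and 0.994 CPM. Its log2 fold change of 4.28 ± 0.46 (adjusted P = 2.9e-06) was the largest among the tested members, and its low sham counts make the size of this fold imprecise. Cxcl5 went from 0.218, 0.495 and 0.794 CPM to 3.12, 4.57 and 6.24 CPM (3.15 ± 0.27, adjusted P = 2.46e-07). Cxcl2 and Cxcl3 were not tested. Cxcl2 had 0 counts in NT + Sham and 24 in NT + Stroke, 7.38-fold higher against a floor of 3 counts over the group, and was seen in 5 of 6 stroke mice. Cxcr2, the receptor for these ligands, had 1 count in NT + Sham and 17 in NT + Stroke, a ratio of 15.7 with an exact 95% counting interval of 2.46 to 655.2. Intervals here cover counting error only, not the spread between mice. Fold values against the floor cover neither the counting error of the stroke group nor that spread.

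Cxcl10 was the tested member of the 3 interferon-induced ligands. It measured 0.163, 0.285 and 0.519 CPM in NT + Sham and 2.30, 2.84 and 4.17 CPM in NT + Stroke. The log2 fold change was 3.32 ± 0.27 (adjusted P = 1.83e-07), a 9.99-fold rise with no overlap between groups. Cxcl9 had 9 and 67 counts over the groups, a ratio of 6.87 (exact 95% counting interval 3.41 to 15.7). Cxcl11, which is annotated as a polymorphic pseudogene, had 12 and 23 counts. Cxcr3, the receptor of this class, had 16 and 70 counts, a ratio of 4.04 (2.32 to 7.44). Exons of Cxcl10 overlap those of Art3 on the other strand in GENCODE M21, and no source used here states whether reads were counted by strand.

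Among the 18 homeostatic and other ligands, 9 were tested, 2 rose and 1 fell. Of all genes tested, 14.4% rose and 11.5% fell, so these counts show nothing particular to this class. Cxcl16, a membrane-bound ligand of Cxcr6 made by macrophages and astroglia, went from 1.21, 1.54 and 2.17 CPM to 4.85, 8.57 and 10.5 CPM (log2 fold change 2.42 ± 0.19, adjusted P = 1.5e-07), and its exons overlap those of Zmynd15 on the other strand. Cxcl12 went from 47.6, 50.6 and 60.1 CPM to 64.6, 83.4 and 112 CPM (0.73 ± 0.11, adjusted P = 0.000155). The lowest Cxcl12 stroke mouse, number 4, lay just above the highest sham mouse. Ccl27a on chromosome 4 (chr4:41769467-41774247, ENSMUSG00000073888), an epithelial ligand of Ccr10, fell from 117, 130 and 149 CPM to 78.7, 104 and 116 CPM (-0.37 ± 0.08, adjusted P = 0.00252). Its exons overlap those of Il11ra1 on the other strand, and a second Ccl27a copy on an unplaced scaffold, with -0.64 ± 0.51 (adjusted P = 0.412), shares near-identical sequence, so that both values are uncertain.

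Cx3cl1, the neuronal ligand of microglial Cx3cr1, had the highest level of any member. In FPKM, which divides by gene length as well as by library size, it measured 267 ± 21.4 in NT + Sham (SD, n = 6) and made up 59.4% of the summed FPKM of all ligands. Cxcl14 followed at 94.6 ± 13.7 FPKM without overlap, then Ccl27a at 54.6 ± 4.46 FPKM and Ackr1 at 53.5 ± 5.22 FPKM, whose mice overlapped. Ackr1 is a receptor of venules and red cells that carries chemokines across endothelium, and its exons overlap those of the neuronal gene Cadm3 on the same strand, so that its reads could not be kept apart from those of Cadm3. From the fifth gene, Ccl21b at 7.32 ± 2.95 FPKM, to the 22nd, Ccrl2 at 0.343 ± 0.125 FPKM, neighbours in the order overlapped. Cx3cl1 measured 958, 1044 and 1185 CPM in NT + Sham and 812, 944 and 1039 CPM in NT + Stroke, and its log2 fold change of -0.18 ± 0.07 did not pass the test (adjusted P = 0.0672). Neuron and cortex markers also differed, with 2 of 5 and 4 of 4 lower after stroke and 1 neuron marker higher, and their part in this was not tested. Also not called were Cxcl14 (0.03 ± 0.10), Ccl25 (0.13 ± 0.11), Ccl28 (-0.64 ± 0.24, adjusted P = 0.0597) and Ccl21b (-0.92 ± 0.42), whose sequence is near-identical to the other Ccl21 copies. Exons of Ccl25 overlap those of Elavl1 on the other strand.

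**Figure D2:**
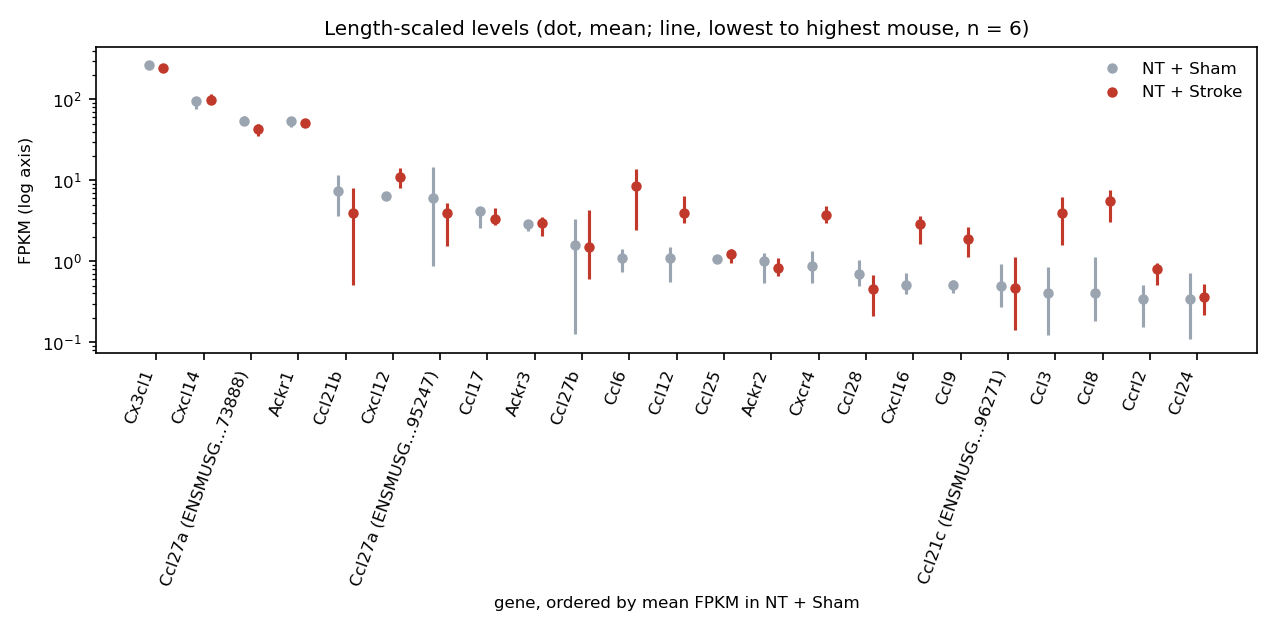
FPKM on a log axis of members with a high mean in NT + Sham, in NT + Sham and NT + Stroke mice, with the mean as a dot and the lowest to highest mouse as a line. Cx3cl1, Cxcl14, Ccl27a and Ackr1 hold the top in both groups, while Ccl6, Ccl12, Cxcl16, Ccl9, Ccl3 and Ccl8 stand clear above their sham range after stroke.

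Among the receptors that signal, Ccr2 and Cxcr4 rose. Ccr2, which brings monocytes out of bone marrow and into tissue, went from 0.374, 0.493 and 0.577 CPM to 1.1, 1.76 and 2.25 CPM (log2 fold change 1.83 ± 0.24, adjusted P = 1.97e-05). Cxcr4, the receptor of Cxcl12, went from 0.981, 1.46 and 2.43 CPM to 5.25, 6.65 and 8.20 CPM (2.03 ± 0.20, adjusted P = 9.94e-07). For both of these receptors every NT + Stroke mouse was above every NT + Sham mouse. Ccr10, the receptor of Ccl27a and Ccl28, overlapped between groups and was not called (0.66 ± 0.28, adjusted P = 0.0979). The 13 signalling receptors with too few counts to test had 0 to 27 counts over the NT + Sham group and 3 to 80 over NT + Stroke.

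Atypical receptors showed no common direction. Ccrl2, which presents chemerin to other cells, rose from 0.404, 0.939 and 1.31 CPM to 1.28, 2.11 and 2.44 CPM (log2 fold change 1.16 ± 0.26, adjusted P = 0.00245), and NT + Stroke mouse 4 lay below the highest sham mouse. Ackr3, the scavenger of Cxcl12, measured 8.11 to 10.3 CPM and 6.75 to 11.2 CPM (0.01 ± 0.12, adjusted P = 0.966), beside the rise of Cxcl12 and Cxcr4. Ackr1 (-0.11 ± 0.07) and Ackr2, which scavenges inflammatory CC ligands (-0.32 ± 0.19), were not called. For Ackr3 the 95% interval of the log2 fold change ran from -0.22 to 0.24.

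Ligands and receptors that pair with each other can be read side by side in NT mice. Cxcl12 and Cxcr4 both rose, as did the Ccr2 ligands Ccl2 and Ccl12 with Ccr2. For Cx3cl1 the receptor moved and the ligand was not called: Cx3cr1, a marker of microglia that the naming rule of the members leaves out, rose from 26.4, 30.7 and 36.6 CPM to 43.1, 46.8 and 50.5 CPM (log2 fold change 0.58, adjusted P = 2.55e-05). Cxcl13 and Cxcr5, the pair that draws B cells, had 3 and 5 counts over NT + Sham and 107 and 19 over NT + Stroke. That is a ratio of 32.9 for Cxcl13 (exact 95% counting interval 11 to 162) and of 3.50 for Cxcr5 (1.27 to 12). Xcl1 and Xcr1, the pair of T and NK cells with cross-presenting dendritic cells, had 0 and 6 counts against 14 and 31. Against the floor of 3 counts, Xcl1 was 4.30-fold higher. Exons of Cxcr5 overlap those of Bcl9l, and exons of Xcl1 those of Gm20743, each on the other strand. Of the 33 members not tested, 28 had more counts in NT + Stroke than in NT + Sham, 4 had fewer and 1 had the same number. Without a filter on low counts the test called 31 of the 62 members, 28 higher and 3 lower. No share over all genes is given here for the untested members or for the fit without a filter. Both counts therefore describe the members only.

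Many members are neighbours on the genome, and several clusters held more than 1 tested member. On chromosome 11, Ccl2, Ccl7, Ccl11, Ccl12, Ccl8 and Ccl1 lie within 270.1 kb (chr11:82035571-82305690), and the 3 of them tested rose. A second cluster of Ccl5, Ccl9, Ccl6, Ccl3 and Ccl4 spans 138.9 kb (chr11:83525778-83664683), and all 5 rose. On chromosome 5, Cxcl5, Cxcl3, Cxcl1 and Cxcl2 span 146.6 kb, and both tested genes rose. On chromosome 4, Ccl27a fell and Ccl21b, in the same cluster, was not called (adjusted P = 0.135). On chromosome 8, Cx3cl1 lies between Ccl22 and Ccl17 within 66.4 kb, and neither Cx3cl1 nor Ccl17 was called. Most of the genes that rose in these clusters were low in sham mice and entered the test through the stroke group, and neighbours were not compared with other members. Related sequences in a cluster may share reads, and how such reads were counted is not given in the sources used here.

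The second comparison asked what stroke does in mice made hypertensive. In HT + Stroke against HT + Sham, 2 of 26 tested members rose, Cxcl10 and Ccl12, and 0 fell. The count depended on the method, with 12 members called by DESeq2, 14 with all 4 groups in one fit and 0 by limma on log2(FPKM + 1). In the edgeR fit that called 2 members, 0.544% of all 16741 genes tested rose and 0.102% fell. These shares do not apply to the other methods, whose counts of members have no share over all genes beside them here. The 14 members that rose or fell in NT mice and could be tested here had log2 fold changes of 0.07 to 2.88, and standard errors up to 0.87. Values were spread among the HT + Stroke mice, and HT + Sham mouse 6 was high among the sham mice. Every stroke mouse lay above every sham mouse for 1 of 26 members, Ccl12, as for 0.579% of all genes. These shares are no like-for-like background, because Cxcl10 and Ccl12 were below 10 counts per library (0.5535 CPM) in some HT + Sham mice. Of the 18 tested members at or above that limit in every HT + Sham mouse, 0 rose, against 0.502% of the 15325 genes held to it.

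Cxcl10 measured 0.107, 0.301 and 0.751 CPM in HT + Sham and 0.455, 2.19 and 5.04 CPM in HT + Stroke (log2 fold change 2.88 ± 0.55, adjusted P = 0.0327). HT + Stroke mouse 1 lay below HT + Sham mouse 6, and the other 5 stroke mice lay above every sham mouse. Ccl12 measured 0.348, 0.430 and 0.951 CPM in HT + Sham and 0.967, 2.0 and 3.91 CPM in HT + Stroke (1.83 ± 0.37, adjusted P = 0.0344), with HT + Stroke mouse 1 just above HT + Sham mouse 6. Both calls were near the threshold. Both were lost without any 1 of HT + Sham mice 1, 2, 3 and 4 or HT + Stroke mice 2 and 4. The Cxcl10 call was also lost without a filter on low counts and with limma on log2(FPKM + 1) or log2(FPKM + 0.1). The Ccl12 call was also lost with limma on log2(FPKM + 1). Without HT + Stroke mouse 1, 5 members were called, Cxcl16, Cxcl10, Ccl12, Ccrl2 and Ccr2. Without HT + Sham mouse 6, 3 were called, Cxcl10, Ccl5 and Ccl12. Without HT + Stroke mouse 6, 3 members were called, and without HT + Sham mouse 5 or HT + Stroke mouse 3, which carried the nasal gland markers, 1 was called.

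The other members that rose in NT mice had positive estimates in HT mice without passing the edgeR test. Ccl6 measured 1.80, 2.15 and 5.76 CPM in HT + Sham and 2.49, 9.69 and 24.2 CPM in HT + Stroke (log2 fold change 2.16 ± 0.65, adjusted P = 0.13). Cxcl5 measured 0.308, 0.638 and 2.60 CPM against 0.569, 3.37 and 22.8 CPM (2.79 ± 0.87, adjusted P = 0.139), with the highest value from HT + Stroke mouse 3. The Cxcl5 estimate was 1.76 without that mouse and 3.46 without HT + Sham mouse 6. Cxcl16 measured 1.39, 1.97 and 4.51 CPM against 1.78, 8.06 and 15.4 CPM (1.74 ± 0.53, adjusted P = 0.127). For each of these genes HT + Stroke mice 1 and 6 lay below HT + Sham mouse 6. Ccl3 (2.56 ± 0.71), Ccl5 (1.99 ± 0.62) and Ccl9 (1.32 ± 0.40) had adjusted P values of 0.104, 0.128 and 0.119. All 6 of these genes passed the threshold with DESeq2 (adjusted P of 0.0174 to 0.0337) and with all 4 groups in one edgeR fit (0.0174 to 0.0338).

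Receptors in HT mice were likewise spread. Ccr2 measured 0.370, 0.674 and 0.851 CPM in HT + Sham and 0.114, 1.22 and 2.49 CPM in HT + Stroke (log2 fold change 1.13 ± 0.46, adjusted P = 0.218), so that the lowest mouse of all was a stroke mouse. Cxcr4 measured 1.55, 2.60 and 3.71 CPM against 1.20, 4.72 and 11.1 CPM (1.01 ± 0.43, adjusted P = 0.252), and without HT + Stroke mouse 3 the estimate was 0.62. Ccrl2 was at 0.617 to 1.35 CPM and 0.796 to 3.91 CPM (1.0 ± 0.33, adjusted P = 0.138). Ccl27a on chromosome 4 had an estimate of 0.07 ± 0.11 (adjusted P = 0.825). Cxcl2 and Xcl1 had 0 counts in HT + Sham and 29 and 20 in HT + Stroke, 9.14-fold and 6.30-fold higher against the floor of 3 counts. Cxcl1, Ccl2, Ccl4 and Ccl8 had too few counts for the test in these groups, with 10, 19, 17 and 59 counts over HT + Sham and 78, 129, 163 and 274 over HT + Stroke.

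**Figure D3:**
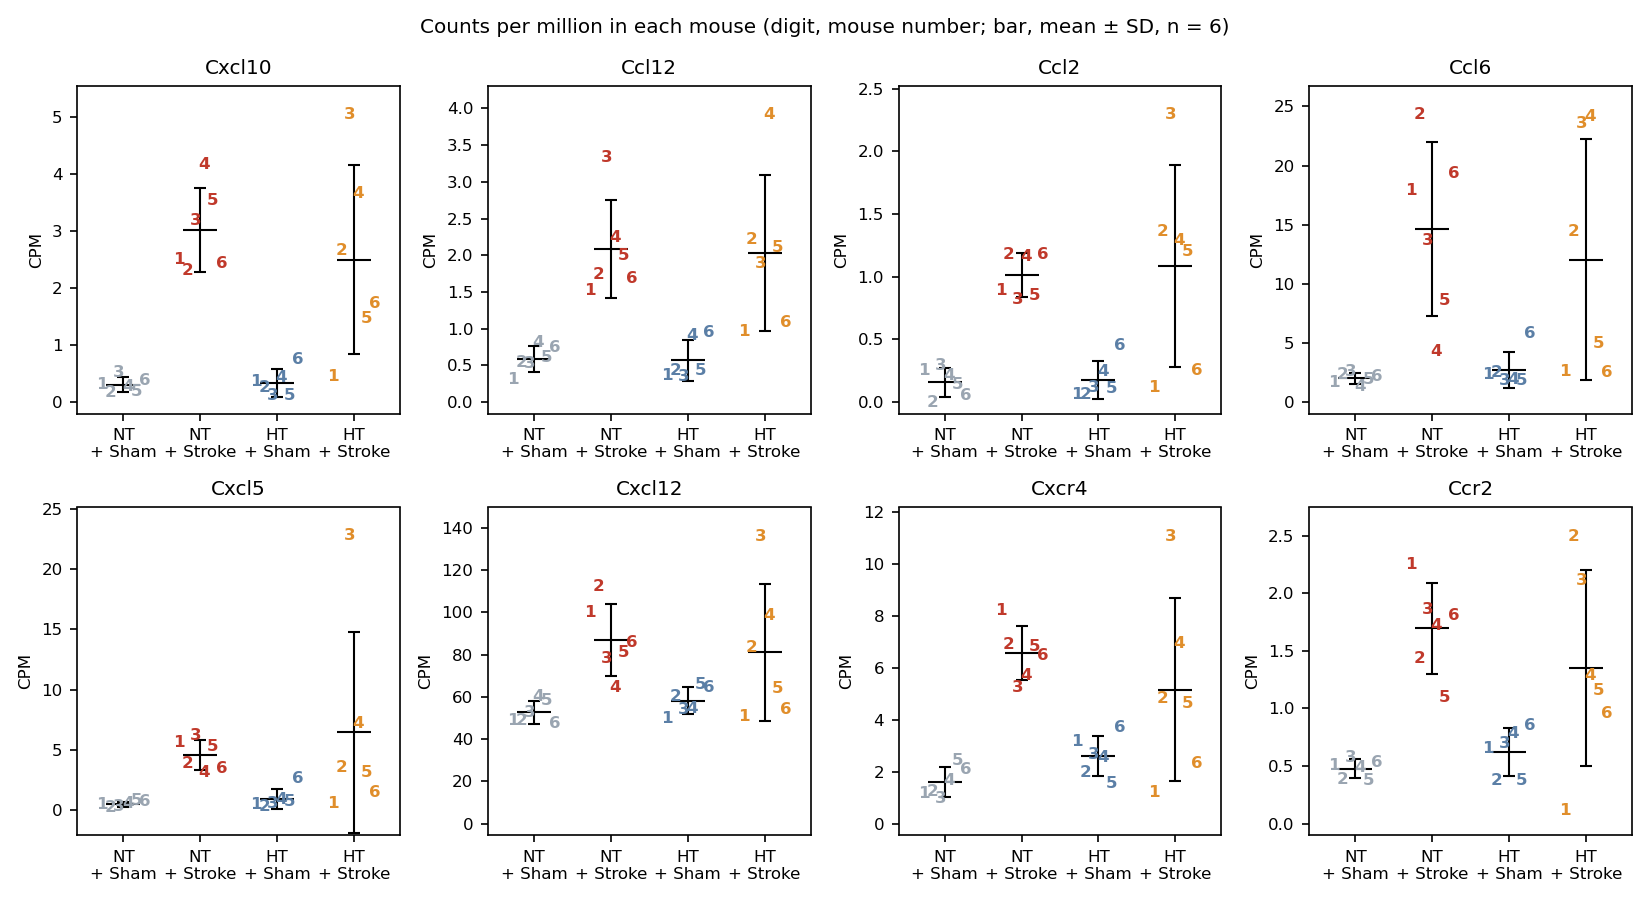
CPM of 8 members in each mouse, shown as the mouse number, with the group mean and SD (n = 6) as a bar. NT + Stroke mice stand above NT + Sham mice in every panel, whereas HT + Stroke mouse 1 falls among or beside the sham mice and mouse 3 is the highest for Cxcl10, Ccl2, Cxcl5, Cxcl12 and Cxcr4.

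Mouse by mouse, the 17 members that rose in NT mice can be followed in HT mice, which had no part in choosing them. HT + Stroke mice 2, 3 and 4 were above every HT + Sham mouse in all 17, mouse 5 in 11, mouse 6 in 4 and mouse 1 in 1. With HT + Sham mouse 6 left out, HT + Stroke mouse 5 was above every HT + Sham mouse in 15, mouse 6 in 8 and mouse 1 in 5. The summed CPM of the 17 members was 66.6, 151.4, 258.4, 191.0, 102.8 and 74.2 in HT + Stroke mice 1 to 6, against 67.7 to 97.8 in HT + Sham. In NT + Stroke mice, whose values chose the genes, the sum was 106.5 to 192.6, against 61.3 to 73.3 in NT + Sham. Cxcl12 alone gave 50.9 of the 66.6 CPM in HT + Stroke mouse 1 and 136.1 of the 258.4 CPM in mouse 3. With each member taken as a ratio to its NT + Sham median, the median ratio was 1.29, 7.22, 11.8, 7.32, 3.92 and 1.66 in HT + Stroke mice 1 to 6. It was 0.903 to 1.48 in HT + Sham mice 1 to 5 and 2.63 in HT + Sham mouse 6, which was the highest of its group in 16 of the 17. NT + Sham values had a part in choosing the 17 members. Ratios to their median may therefore run high and are not support for a rise.

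**Figure D4:**
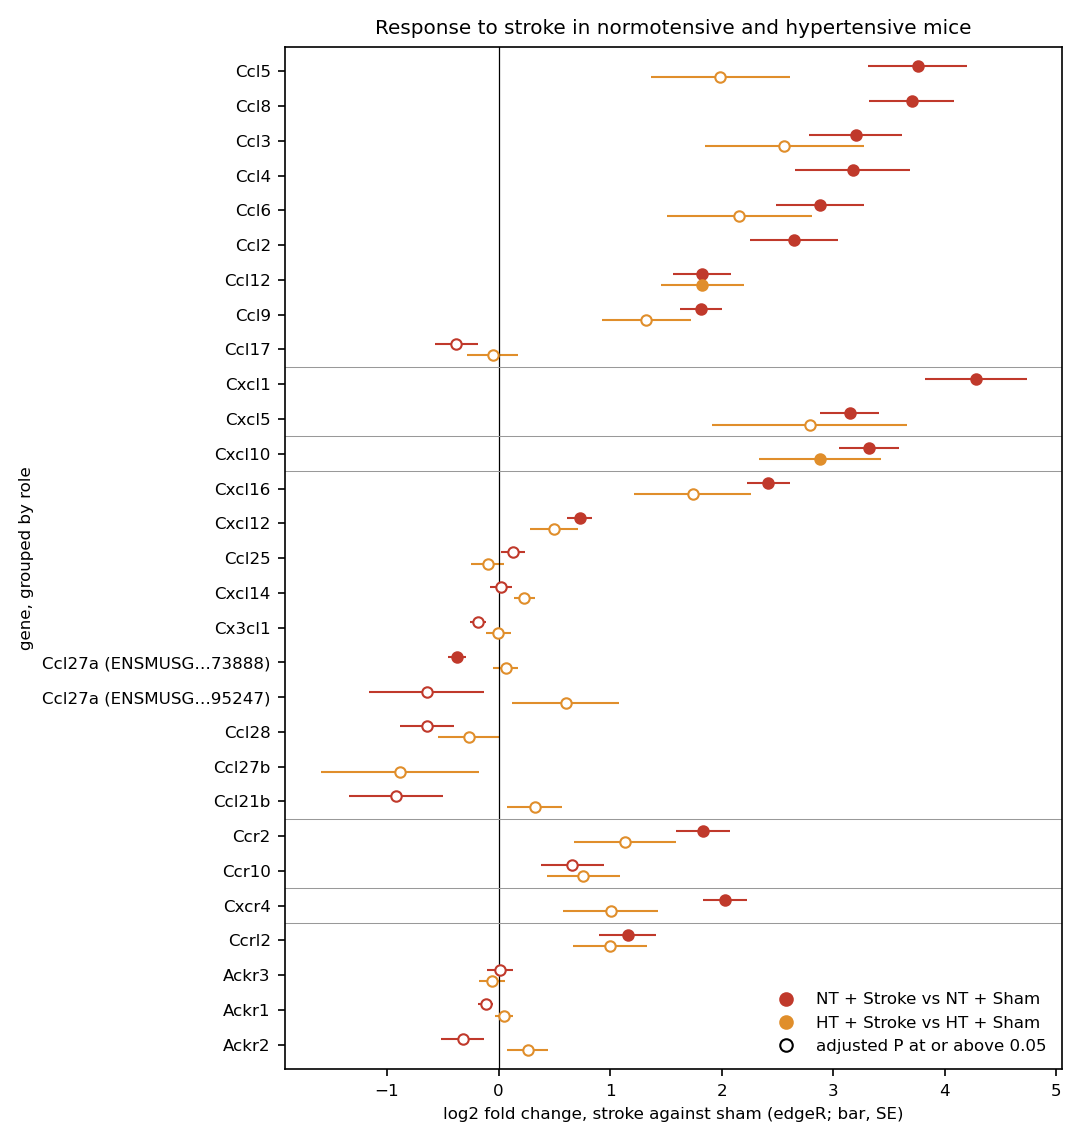
Log2 fold change after stroke with its SE for tested members, in NT mice (red) and HT mice (orange), with filled symbols for adjusted P under 0.05. Orange bars are wider than red ones for most of the genes that rose, and only Cxcl10 and Ccl12 are filled in both colours.

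Whether stroke acted differently in HT and NT mice was tested as an interaction over all 24 libraries. No member was called among 36 tested, nor any gene among 17608 (0%), and the smallest adjusted P of a member was 0.322. An unadjusted P under 0.05 was found for 5 members (13.9% of members, against 10.4% of all genes), and DESeq2 called 0 members as well. The 3 members with the smallest P were Ccl27a on chromosome 4 (difference of log2 fold changes, HT minus NT, 0.43 ± 0.15, adjusted P = 0.322), Cxcl13 (-3.19 ± 1.27, adjusted P = 0.403) and Ccl21b (1.24 ± 0.51, adjusted P = 0.421). Cxcl13 had 3 and 107 counts in the NT groups and 22 and 71 in the HT groups, 15 of the 22 in HT + Sham mouse 6. Without that mouse the Cxcl13 difference was -1.94. For Cxcl10 the difference was -0.44 with a 95% interval from -1.72 to 0.84, and for Ccl12 it was -0.001 with an interval from -1.15 to 1.14. Both intervals are wide, so a difference in either direction is not excluded.

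The remaining comparisons asked what hypertension does without stroke and after stroke. In HT + Sham against NT + Sham, edgeR called 0 of 21 members and 0% of 16581 genes, with 2 members at an unadjusted P under 0.05 (9.52% of members, against 8.03% of all genes). DESeq2 and limma called 0 members. Cxcr4 (log2 fold change 0.70 ± 0.25, adjusted P = 0.483), Cxcl16 (0.59 ± 0.26, adjusted P = 0.598) and Ccl27a on chromosome 4 (-0.18 ± 0.09, adjusted P = 0.644) had the smallest P. All 6 HT + Sham mice were above the NT + Sham median for Cxcr4, at 1.55 to 3.71 CPM against 0.981 to 2.43 CPM, and the groups overlapped. Without HT + Sham mouse 6 the estimates were 0.56 for Cxcr4 and 0.28 for Cxcl16.

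In HT + Stroke against NT + Stroke, edgeR called 0 of 35 members and 0% of 17008 genes, and 2 members had an unadjusted P under 0.05 (5.71% of members, against 7.23% of all genes). DESeq2 and limma again called 0 members. Ccl27a on chromosome 4 (0.25 ± 0.11), Ccl21b (0.89 ± 0.41) and Ccr10 (0.52 ± 0.26) had the smallest P, each with adjusted P = 0.654. The members that rose after stroke in NT mice had estimates between -0.34 (Cxcr4) and 0.51 (Cxcl5). For Ccl2 the estimate was 0.12 ± 0.45, and the 95% interval ran from -0.76 to 1.0. A p-value above the threshold does not show that the groups were alike, and NT + Stroke is shared with the first comparison.

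Genes around the chemokine system were read from lists of the pathway. Of 26 genes of receptor signalling, 24 were tested, and in NT + Stroke 11 rose and 4 fell against NT + Sham. Those that rose included the leukocyte genes Rac2, a GTPase of migrating cells (log2 fold change 1.72), and Dock2, which activates Rac (1.43). Among those that fell was Grk2, the kinase that desensitizes receptors (-0.26). Of 18 adhesion genes, 14 were tested and 11 rose, among them Itgax, an integrin of activated microglia and dendritic cells (5.61), Icam1, which holds leukocytes on endothelium (1.72), and Vcam1 (0.60). Of 13 cytokines known to induce chemokines, 5 were tested and 4 rose, Il1a (1.61), Tgfb1 (1.15), Ltb (1.11) and Csf1 (0.70). Of 10 genes of other chemoattractants, 9 were tested and 6 rose, with C3ar1, the receptor of complement C3a, at 2.53. Of 7 chemokine genes outside the naming rule, 5 were tested and 3 rose, Cx3cr1, Pf4 (1.01) and Gpr182 (0.56). Of all genes tested 14.4% rose, which is no like-for-like background, because list genes low in sham mice, such as Itgax, entered the test through the stroke group. In HT + Stroke against HT + Sham, 1 gene of the 5 lists was called, Rarres2, which encodes chemerin (0.99, adjusted P = 0.0193).

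Markers of several cell types that make or answer chemokines moved with the members, and their part in the results was not tested. In NT + Stroke, 5 of 7 microglia markers, 5 of 7 markers of border and infiltrating macrophages, 5 of 5 astrocyte markers and 6 of 7 meningeal fibroblast markers rose. For lymphocytes 2 of 3 tested markers rose, Trac and Cd3e, of 8 in the list of T and NK cells, and for neutrophils 2 of 2 tested, S100a8 and S100a9, of 5. Of 5 endothelial markers 1 was higher in NT + Stroke, and of 3 dendritic cell markers tested 0 were higher and 1 was lower. Summed dendritic cell markers were at 14.2 to 19.5 CPM in NT + Sham and 14.1 to 15.7 CPM in NT + Stroke. Summed endothelial markers were at 207.6 to 243.3 CPM in sham and 220.8 to 273.7 CPM in stroke mice of the NT groups, and at 212.0 to 256.6 and 215.8 to 259.4 CPM in those of the HT groups. Summed microglia markers ran from 199.5 to 240.3 CPM in NT + Sham, 292.2 to 365 in NT + Stroke, 223.8 to 295.8 in HT + Sham and 220.9 to 424.7 in HT + Stroke. Macrophage markers ran from 6.35 to 12.4, 18.2 to 32.9, 8.45 to 19.6 and 7.40 to 31.0 CPM in the same order. Astrocyte markers ran from 613.6 to 744.5, 1239 to 1650, 668.6 to 1181 and 720.5 to 2064 CPM, and fibroblast markers from 82.0 to 98.7, 227.3 to 692.9, 83.1 to 240.4 and 108.5 to 783.9 CPM. T and NK cell markers ran from 3.54 to 12.1, 6.57 to 28.3, 3.16 to 14.4 and 12.1 to 34.2 CPM, and neutrophil markers from 0.655 to 1.92, 2.24 to 38.2, 0.966 to 3.66 and 0.228 to 13.3 CPM. No marker of these lists was at 0 counts in all 24 libraries. In the lists of microglia, macrophages, astrocytes and fibroblasts HT + Stroke mice 1 and 6 lay within the HT + Sham range or below it, and HT + Stroke mouse 3 was the highest of its group. T and NK cell markers differed, at 23.0 and 26.6 CPM in HT + Stroke mice 1 and 6, above the highest HT + Sham mouse. Neutrophil markers in HT + Stroke mouse 6 were at 6.44 CPM, also above every HT + Sham mouse.

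**Figure D5:**
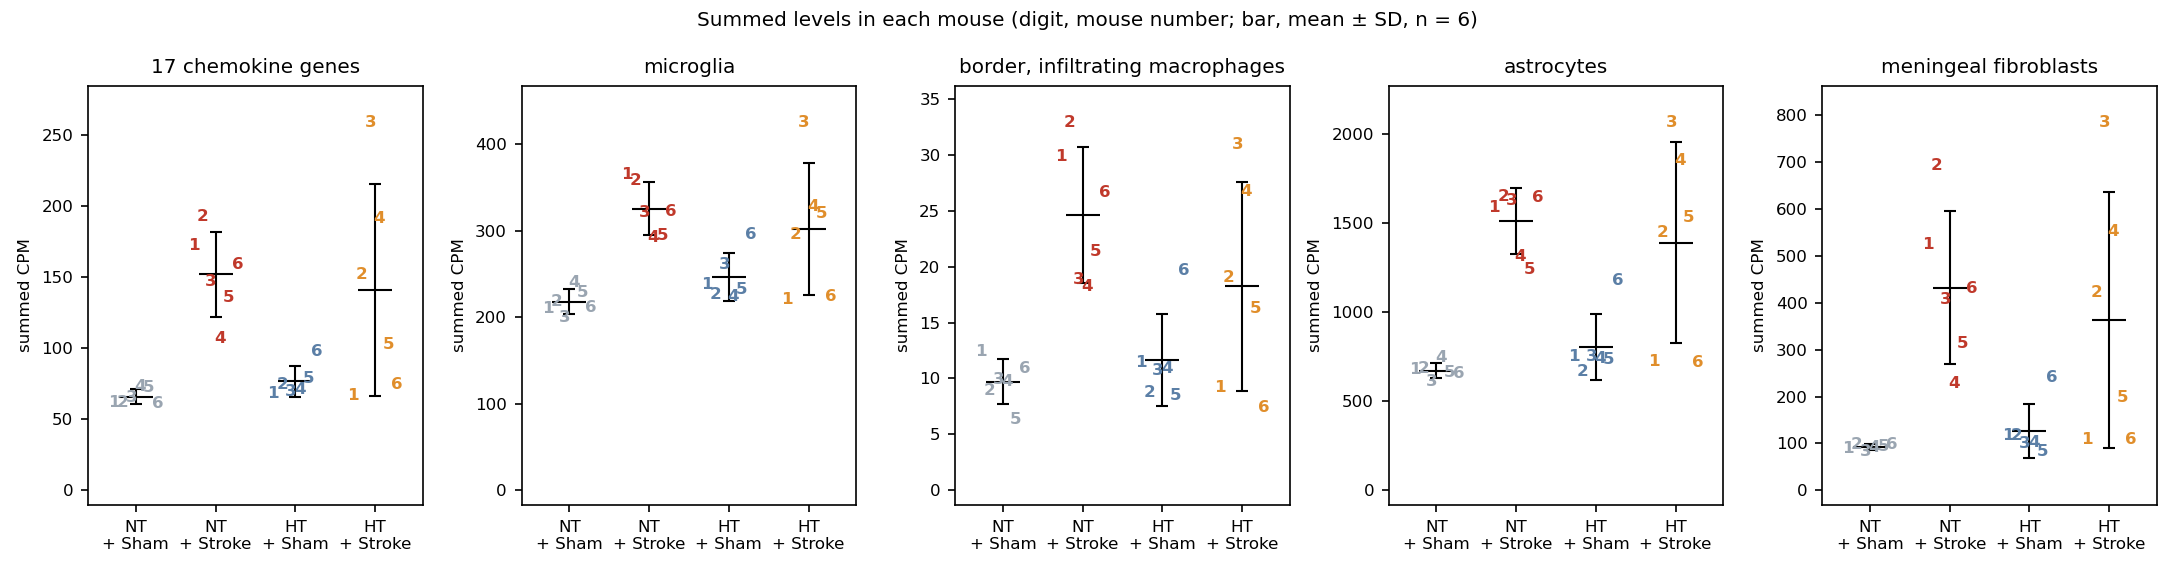
Summed CPM in each mouse, shown as the mouse number with group mean and SD (n = 6), for the 17 members that rose in NT mice and for 4 marker lists. HT + Stroke mice 1 and 6 sit within or below the HT + Sham range in all 5 panels, and HT + Stroke mouse 3 is the highest of its group in all 5.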

How the data were processed

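Poly(A) RNA libraries of 24 mice were sequenced. The authors used the Ensembl mouse genome for mapping, and the submitters' processing notes name featureCounts 1.5.0-p3 and DESeq2 1.20.0. The aligner, strand setting and treatment of reads that map to several genes are not given in the sources used here. Counts were used as deposited by the authors, whole numbers per gene without normalization. FPKM values were used as deposited by the authors, scaled to gene length and library size. Also in the tables and unused were 48 columns of normalized counts, 8 of group means, and the authors' own fold changes and p-values. A table lists a gene only if it had counts, so a gene missing from a table was taken as 0.

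Tables were joined by gene identifier to 33981 genes, and 48 library columns held in 2 tables were identical. Counts were tested with edgeR 4.0.16 (R 4.3.3, quasi-likelihood, robust) after filterByExpr (minimum count 10, total 15) and TMM scaling, each pair of groups on its own 12 libraries and the interaction on all 24. Adjusted P values are Benjamini-Hochberg values over every gene in the fit, and those under 0.05 were called. SE is the log2 fold change divided by the square root of F. The 95% intervals of log2 fold changes use a normal quantile of this SE, so they are somewhat narrower than the test implies. CPM uses TMM-scaled library sizes. The fits were first checked on simulated counts.

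The alternatives were DESeq2 1.42.0, library size scaling, no filter, a filter at a mean of 1 CPM, all 4 groups in one fit, limma 3.58.1 on log2(FPKM + 1) and log2(FPKM + 0.1), and leaving out each library. Members with an adjusted P under 0.05 or a mean of 1 CPM in any group were named, apart from 1 that is counted but not reported here, as were the 3 with the smallest P where none was called. Others named, such as Cxcl2, Cxcl9, Cxcr2, Cxcr3, Xcl1, Xcr1, Cxcr5, Ccl7 and Ccl22, were chosen after their values were seen. The members and all lists were chosen with earlier results of these data known.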

Additional observations from a re-analysis of the deposited data

Results flagged for a closer look

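In each group of 6 mice, the highest or lowest mouse of the 30 members that met the naming rule was compared with the others by Dixon's ratio of gap to range, at its 95% critical value. Chance flags about 1 in 20 groups, and 11 values of 120 groups were past the limit. Of these, 6 belonged to HT + Sham mouse 6, each the highest of its group. Ccl8 measured 1.95 CPM there against 0.058 to 0.370 CPM in the other HT + Sham mice, and Ccl6 measured 5.76 CPM against 1.80 to 2.53 CPM. Ccl5 measured 1.60 CPM against 0.116 to 0.474 CPM, Cxcl16 measured 4.51 CPM against 1.39 to 2.35 CPM, and Cxcl5 measured 2.60 CPM against 0.308 to 0.905 CPM. Ccl27b, a near-identical copy of Ccl27a, measured 4.36 CPM in the same mouse against 0.348 to 1.45 CPM.

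In HT + Stroke mouse 3, Cxcl5 reached 22.8 CPM against 0.569 to 7.19 CPM in its group, and Ackr1 was low at 57.9 CPM against 76.5 to 80.8 CPM. In HT + Stroke mouse 1, Ackr2 measured 3.70 CPM against 2.68 to 3.06 CPM. In NT + Stroke mouse 5, Ccl17 measured 2.24 CPM against 1.40 to 1.64 CPM. In NT + Sham mouse 3, Ccl8 measured 0.577 CPM against 0.0934 to 0.163 CPM, from 10 counts.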

How the results depend on the processing

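In NT + Stroke against NT + Sham, 18 members were called, and the alternatives called 15 to 27 apart from the fit without a filter on low counts, which called 31. Leaving out each mouse gave 18 to 21. The 18 log2 fold changes kept their sign and stayed past the threshold in every alternative where they were tested. In HT + Stroke against HT + Sham, 2 members were called, and the number moved to 12 with DESeq2, 14 with all 4 groups in one fit, 4 without a filter, 1 with limma on log2(FPKM + 0.1) and 0 with limma on log2(FPKM + 1). Leaving out each mouse gave 0 to 5. No share over all genes is given for the alternatives, so their counts describe the members only. The cause of these differences was not tested, apart from the larger number of members open to the test without a filter. In the other comparisons and the interaction every alternative and every left-out mouse gave 0 members. No named log2 fold change reversed. No paired analysis was possible because the labels give 1 sample per group and do not number mice across groups. Depth limits the low members, 33 of which had too few counts for the test in NT mice and 36 in HT mice.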
